A study of Mus musculus with 24 samples.

Results

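Interferon-stimulated genes are the genes that cells switch on when an interferon binds its receptor. A list of 55 such genes was followed by symbol through RNA sequencing of mouse corpus callosum, the large white matter tract between the cerebral hemispheres. All 55 were found among the 54446 gene IDs of the deposited table. The members were listed by name and not by a threshold on measured values, and were put in 9 groups by the role of their proteins. They and the pathway and marker lists were chosen with earlier results of these data known, so their counts are not those of independent lists. Cuprizone is a copper chelator that kills oligodendrocytes when it is fed to mice, and so strips the tract of myelin. The libraries fall into 4 groups, namely Naive Vehicle (4 libraries, no cuprizone, given the carrier only), Naive BTKi (4 libraries, no cuprizone, given an inhibitor of Bruton's tyrosine kinase), Cuprizone Vehicle (8 libraries) and Cuprizone BTKi (8 libraries). The inhibitor was given once disease had been induced. Its name and dose, the length of the cuprizone diet and the strain, age and sex of the mice are not given in the labels, which also do not say whether each library is 1 mouse. P-values therefore measure the spread between libraries, which may be partly technical.

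Type I interferons signal through the receptor IFNAR1/IFNAR2 and the kinases JAK1 and TYK2 to a transcription factor complex that contains IRF9. That complex binds a DNA element called the interferon-stimulated response element (ISRE), whereas interferon gamma signalling acts through a different element called GAS. The induced proteins block translation of foreign RNA (IFIT proteins), make and sense signals of double-stranded RNA (OAS family, RNA helicases), tag proteins with the ubiquitin-like ISG15, and hold enveloped viruses at membranes (BST2, IFITM proteins). In white matter these genes are known from microglia, the resident macrophages of the brain, and from astrocytes. BTK relays signals from the antigen receptor in B cells, and is also made by microglia.

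Sequencing depth was read from the spacing of low values and lay between 26.5 and 31.0 M (mega) fragments per library. The lowest value belonged to Cuprizone BTKi library 5, and the next lowest library had 29.8 M. Oligodendrocyte markers, which define white matter, were abundant, with a summed level of 3391 to 4771 FPKM over 10 genes in Naive Vehicle libraries. Choroid plexus RNA was present as well, and Cuprizone Vehicle libraries 1, 4 and 7 stood apart by how little of it they held. The summed level of 7 choroid plexus markers ran from 30.1 to 1523 FPKM in Cuprizone Vehicle and 400.0 to 1260.0 FPKM in Cuprizone BTKi. Naive Vehicle library 2 had the highest levels of striatal and oligodendrocyte markers.

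Promoters carry the sequence that the interferon complex reads, so they are shown first for the members that rose most. RefSeq (GRCm38.p6) gave a window from 250 bases before to 50 after the start site for 43 of the 55 genes. The ISRE core was searched as GAAA, any 2 bases and GAAA again on both strands, with overlapping matches counted apart, and the GAS core as TTCNNNGAA, which reads the same on both strands. Of those 43 genes, 19 (44.2%) held an ISRE core, against 3.99% of 27025 genes and 3.44% of 32851 windows of the same length in the RefSeq table. A GAS core was found in 7 of 43 (16.3%) and in 9.55% of all genes. The 250 bases before the start site are printed 5′ to 3′ along the gene's own strand, with each ISRE core in capitals. Ifit3, Ifit1, Bst2 and Ifi207 are the 4 members with the largest cuprizone change among those holding a core, and Oasl2 is the member with the largest change among those holding none. Isg15 was added after its values had been seen, because its matches overlap.
Ifit3, chr19:34583279-34583528, plus strand: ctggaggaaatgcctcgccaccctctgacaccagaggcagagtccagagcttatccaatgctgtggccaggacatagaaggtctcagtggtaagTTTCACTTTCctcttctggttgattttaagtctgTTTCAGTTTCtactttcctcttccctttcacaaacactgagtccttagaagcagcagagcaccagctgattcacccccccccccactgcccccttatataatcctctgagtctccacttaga
Ifit1, chr19:34640639-34640888, plus strand: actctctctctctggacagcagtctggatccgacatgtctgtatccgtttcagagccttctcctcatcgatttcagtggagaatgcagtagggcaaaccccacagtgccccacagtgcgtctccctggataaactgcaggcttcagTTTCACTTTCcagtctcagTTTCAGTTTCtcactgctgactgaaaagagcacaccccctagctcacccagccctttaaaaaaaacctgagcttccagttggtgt
Isg15, chr4:156200819-156201068, minus strand: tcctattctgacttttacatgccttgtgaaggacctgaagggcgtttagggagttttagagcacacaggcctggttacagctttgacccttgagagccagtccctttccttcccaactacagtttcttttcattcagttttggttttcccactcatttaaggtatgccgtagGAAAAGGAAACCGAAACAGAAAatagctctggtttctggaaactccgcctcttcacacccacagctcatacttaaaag
Bst2, chr8:71537473-71537722, minus strand: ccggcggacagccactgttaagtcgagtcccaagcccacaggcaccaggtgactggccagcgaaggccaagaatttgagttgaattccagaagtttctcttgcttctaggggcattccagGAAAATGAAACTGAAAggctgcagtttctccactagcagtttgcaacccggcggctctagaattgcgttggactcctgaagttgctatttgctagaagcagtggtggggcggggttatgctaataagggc
Ifi207, chr1:173741810-173742059, minus strand: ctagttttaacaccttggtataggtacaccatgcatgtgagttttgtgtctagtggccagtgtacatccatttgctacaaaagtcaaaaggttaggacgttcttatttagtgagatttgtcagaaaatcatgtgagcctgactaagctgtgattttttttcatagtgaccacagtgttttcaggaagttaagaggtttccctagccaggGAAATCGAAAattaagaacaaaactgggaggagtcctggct
Oasl2, chr5:114896684-114896933, plus strand: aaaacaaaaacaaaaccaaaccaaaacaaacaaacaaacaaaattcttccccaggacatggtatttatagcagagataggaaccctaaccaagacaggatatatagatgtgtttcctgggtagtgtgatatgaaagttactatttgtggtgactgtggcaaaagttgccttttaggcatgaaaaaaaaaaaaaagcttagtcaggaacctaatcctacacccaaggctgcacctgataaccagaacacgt
Ifit3 and Ifit1 each held 2 separate cores, at -156 and -122 bases from the start site in Ifit3 and at -104 and -85 in Ifit1. In Isg15, 3 overlapping matches made 1 run of 4 repeats, starting at -78. Bst2 had 2 overlapping matches at -130 and -124, and Ifi207 had 1 at -41. No match to these letters lay in the Oasl2 window, which says nothing of other sequence that the complex can bind.

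**Figure D1:**
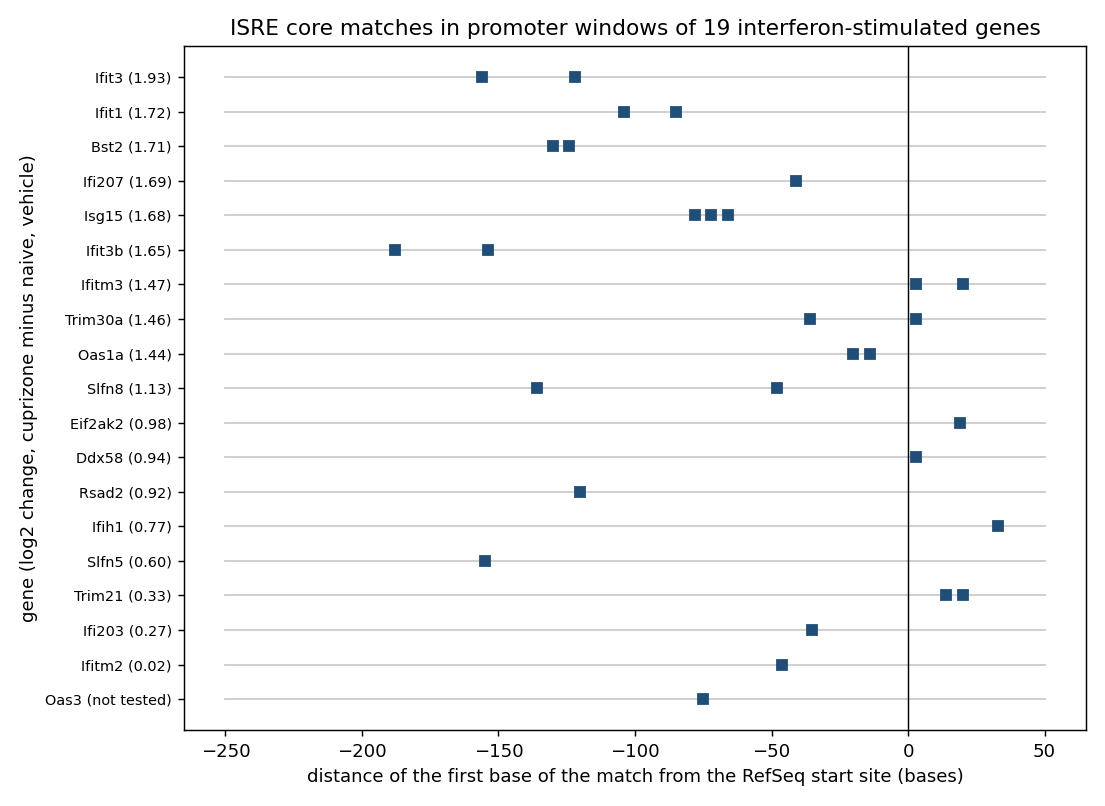
Distance in bases of each ISRE core match (squares) from the RefSeq start site in the promoter windows of the 19 interferon-stimulated genes that hold one, ordered by their log2 change with cuprizone under vehicle. Matches run from -188 bases, before the start site, to 33 after it, Oas3 is shown without a tested change, and genes with a change near 0 such as Ifitm2 hold a match too.

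Most of the set was higher in cuprizone mice. Differences were taken on log2(FPKM + 0.5), where FPKM is the fragment count scaled by transcript length and library size, and tested with limma. Genes with a mean of at least 0.5 FPKM over all libraries were tested, with p-values adjusted over those 15216 genes and a call at an adjusted p under 0.05. Of the 55 members 53 passed that filter, and Oasl1 and Oas3 did not. Under vehicle 47 of the 53 were higher in cuprizone mice and 0 were lower, while 10.2% of all genes tested were called higher and 4.82% lower. Before adjustment, at p under 0.05, 49 were higher and 0 lower (18.2% and 9.22% of all genes), and 52 had a difference above 0 (59.3% of all genes). The median log2 change of the 53 was 0.92, against 0.029 over all genes tested, and it ran from -0.041 for Ifitm1 to 2.34 for Ifi204. Libraries did not overlap for 41 of the 53, all higher in cuprizone, compared with 5.92% of all genes tested (2.85% in the lower direction). Of the 53, 11 passed the filter only through cuprizone libraries, with a naive mean under 0.5 FPKM, so a rise in those was built into their selection. They were Epsti1, Ifi204, Ifi207, Ifi44, Mx1, Oas1a, Oas2, Phf11d, Rsad2, Slfn8 and Zbp1. Counts by role below, under vehicle and under the inhibitor, include them. The median, range and overlap count above were taken over all 53, those 11 included. Of the 42 members with a naive mean at or above 0.5 FPKM, 36 were called higher, and the median log2 change of the 42 was 0.73.

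**Figure D2:**
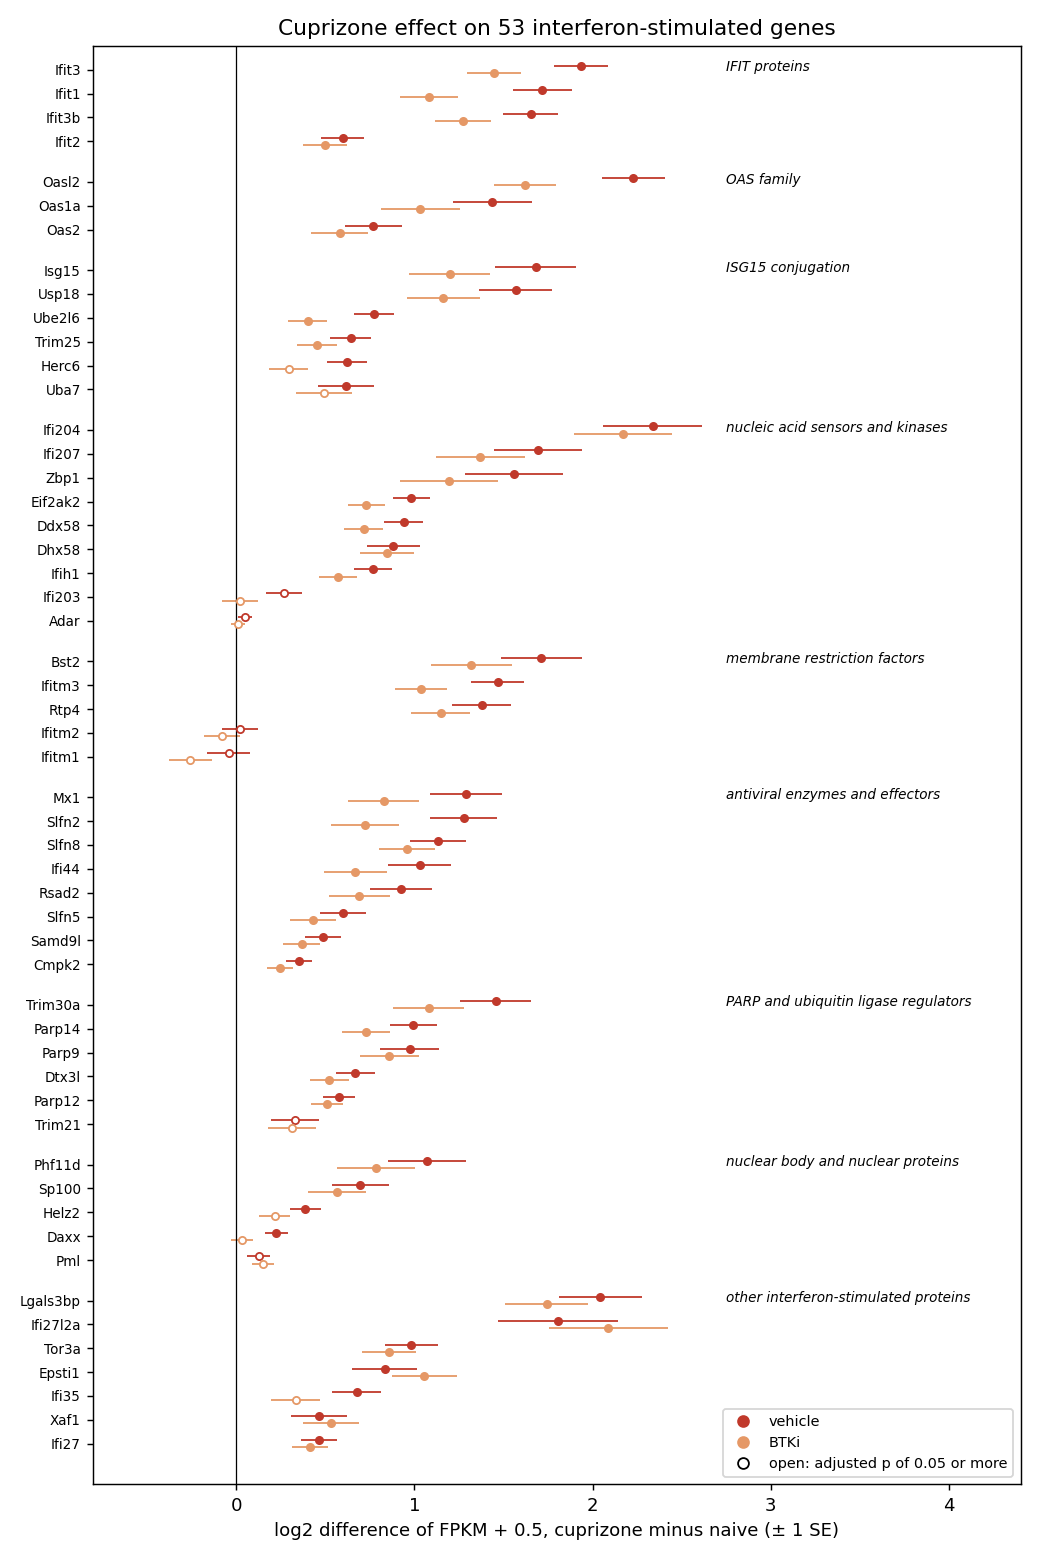
Log2 difference of FPKM + 0.5, cuprizone minus naive, for the 53 tested interferon-stimulated genes in 9 role groups, under vehicle (red) and under BTKi (orange). Points are limma estimates, bars are 1 standard error, and open points have an adjusted p of 0.05 or more. Under vehicle 47 of the points are filled, and Ifitm1, Ifitm2, Adar and Pml sit near 0.

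The split of all calls between higher and lower depended on scaling. It was 1555 higher and 733 lower as deposited, 1220 and 976 after median ratio scaling and 1205 and 1072 after quantile normalization. The members' calls under vehicle were 46 and 47 in those alternatives, and none was lower.

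All 4 IFIT genes rose with cuprizone. They lie together on chromosome 19, and their proteins bind viral RNA that lacks the host's cap marks. Ifit3 (ENSMUSG00000074896.3, chr19:34583531-34588731, plus strand in GENCODE M21, GRCm38) measured 6.89, 5.79, 6.45 and 5.87 FPKM in the Naive Vehicle libraries and 17.8 to 35.9 (median 24.9) FPKM in the Cuprizone Vehicle libraries. The lowest cuprizone library stood well above the highest naive one, and the log2 rise was 1.93 (SE 0.15, adjusted p = 4.32e-09). Ifit1 (ENSMUSG00000034459.8, chr19:34640871-34650009, plus strand), which binds uncapped or incompletely capped RNA, measured 0.984, 0.871, 0.882 and 1.38 FPKM in Naive Vehicle and 3.00 to 7.24 (median 4.3) in Cuprizone Vehicle. It did not overlap between the groups either, with a log2 rise of 1.72 (SE 0.16, adjusted p = 6.86e-08). Ifit3b rose by 1.65 and Ifit2 by 0.60 on the log2 scale. Ifit3 and Ifit3b are near-identical copies whose implied fragments were whole numbers (within 0.1) in 2 of 8 naive libraries each, where Isg15 gave 8 of 8. Their separate levels are therefore uncertain, since reads that fit both copies can be divided in counting.

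In the OAS family, all 3 tested members rose, though Oas1a and Oas2 passed the filter only through cuprizone libraries. OAS enzymes make 2'-5' oligoadenylates that switch on RNase L, and Oasl2 is a relative. Oasl2 (ENSMUSG00000029561.17, chr5:114896936-114912234, plus strand) measured 2.23, 2.32, 2.24 and 2.06 FPKM in Naive Vehicle and 7.9 to 19.1 (median 11.6) in Cuprizone Vehicle. Every cuprizone library was far above every naive one, with a log2 rise of 2.23 (SE 0.18, adjusted p = 4.60e-09). Oas1a, an active synthetase, went from 0.442 ± 0.185 (SD, n = 4) to 2.18 ± 1.09 FPKM (SD, n = 8), and its log2 rise was 1.44 (SE 0.22, adjusted p = 5.02e-05). Oas2 rose by 0.77 on the log2 scale. The 2 untested members were low in every group, and no fold is given for them. Oasl1 measured 0.126, 0.0859, 0.158 and 0.0483 FPKM in Naive Vehicle and 0.326 to 1.17 (median 0.551) in Cuprizone Vehicle, without overlap. Oas3 was listed at 0 in 2 of 4 Naive Vehicle libraries and reached 0.461 FPKM in Cuprizone Vehicle.

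All 6 genes of ISG15 conjugation rose. Isg15 (ENSMUSG00000035692.6, chr4:156199424-156200818, minus strand) encodes the ubiquitin-like tag and measured 2.13, 1.44, 1.46 and 1.57 FPKM in Naive Vehicle and 3.58 to 9.91 (median 6.42) in Cuprizone Vehicle. The groups did not overlap, the log2 rise was 1.68 (SE 0.23, adjusted p = 8.93e-06), and its levels stood for 19 to 52 fragments in the 8 naive libraries and 66 to 228 in the 16 cuprizone ones. Usp18 (ENSMUSG00000030107.10, chr6:121245906-121270917, plus strand) encodes the protease that removes ISG15 and also damps the type I receptor. It measured 0.626, 0.809, 0.737 and 0.465 FPKM in Naive Vehicle and 1.51 to 5.36 (median 2.96) in Cuprizone Vehicle, with no overlap and a log2 rise of 1.57 (SE 0.21, adjusted p = 5.58e-06). The E1 enzyme gene Uba7 rose by 0.62, the E2 gene Ube2l6 by 0.77, and the ligase genes Herc6 and Trim25 by 0.62 and 0.64 on the log2 scale.

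Of 9 nucleic acid sensors and kinases, 7 rose, among them Ifi204, Ifi207 and Zbp1, which passed the filter only through cuprizone libraries. Ifi204 (ENSMUSG00000073489.6, chr1:173747293-173766943, minus strand), a DNA-binding protein of the interferon-inducible p200 family, had the largest log2 change of the 53. Its levels were 0.187, 0.256, 0.0807 and 0.122 FPKM in Naive Vehicle and 1.47 to 6.57 (median 2.26) in Cuprizone Vehicle, where libraries 5 and 8 were at 6.57 and 6.43 and the other 6 at or under 2.98. The log2 rise was 2.34 (SE 0.28, adjusted p = 1.44e-06), and it understates the ratio because the naive values lie below the pseudocount. Its neighbour Ifi207 went from 0.0882 ± 0.0481 (SD, n = 4) to 1.58 ± 1.00 FPKM (SD, n = 8), and its log2 rise was 1.69 (SE 0.25, adjusted p = 2.43e-05). The cytosolic RNA helicases Ddx58 (RIG-I), Ifih1 (MDA5) and Dhx58 (LGP2) rose by 0.94, 0.77 and 0.88 on the log2 scale. Eif2ak2, the kinase PKR, rose by 0.98, and Zbp1, a sensor of Z-form nucleic acid, by 1.56. Adar, the RNA-editing enzyme, measured 39.0, 38.8, 38.1 and 38.1 FPKM in Naive Vehicle and 38.4 to 42.6 (median 39.5) in Cuprizone Vehicle. Those ranges overlapped, and its log2 difference was 0.05 (SE 0.038, adjusted p = 0.416). Ifi203 did not pass the test either, with a log2 difference of 0.27 (SE 0.10, adjusted p = 0.0723). Genes of the p200 family are close copies, so reads may be divided among them.

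Membrane restriction factors differed among themselves: 3 of 5 rose. Bst2 (ENSMUSG00000046718.8, chr8:71534255-71537456, minus strand) encodes tetherin, which holds budding virus at the cell surface. It measured 3.34, 3.42, 2.54 and 3.2 FPKM in Naive Vehicle and 6.82 to 20.1 (median 10.7) in Cuprizone Vehicle, without overlap, and its log2 rise was 1.71 (SE 0.23, adjusted p = 6.94e-06). Rtp4, a Golgi chaperone with antiviral activity, rose by 1.38 on the log2 scale. The 3 IFITM genes, whose proteins block viral fusion, lie within a short stretch of chromosome 7. Ifitm3 (chr7:141009586-141010770, minus strand) measured 10.4, 10.4, 9.93 and 11.1 FPKM in Naive Vehicle and 21.7 to 47.1 (median 28.1) in Cuprizone Vehicle. All 8 cuprizone libraries lay above the naive ones, a log2 rise of 1.47 (SE 0.15, adjusted p = 1.46e-07). Ifitm2 (chr7:140954837-140955987, minus strand) started from the same naive level, at 9.57, 11.1, 10.1 and 12.0 FPKM, and measured 9.75 to 12.5 (median 10.8) in Cuprizone Vehicle. Its groups overlapped, and the log2 difference was 0.024 (SE 0.10, adjusted p = 0.903), with a sign that turned under both scaling alternatives. Ifitm1 measured 1.5, 2.06, 1.85 and 2.29 FPKM in Naive Vehicle and 1.47 to 2.54 (median 1.79) in Cuprizone Vehicle, overlapping as well, with a log2 difference of -0.041 (SE 0.12, adjusted p = 0.862).

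**Figure D3:**
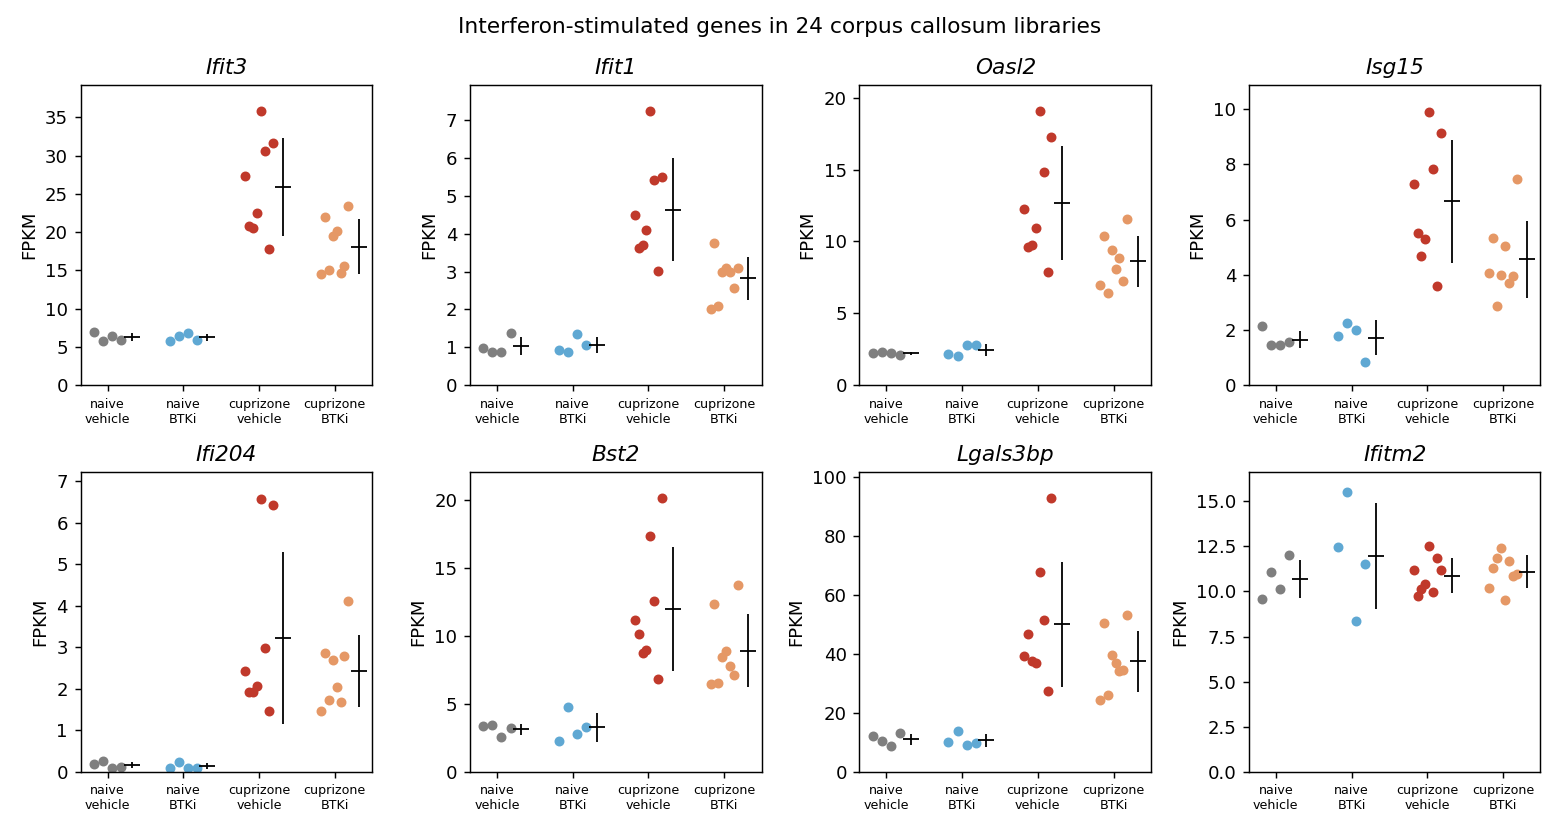
FPKM (linear axes from 0) of 8 interferon-stimulated genes in each of the 24 libraries, by group. Points are libraries, and the bar beside them is the mean ± 1 SD. Cuprizone libraries lie above all naive libraries for Ifit3, Ifit1, Oasl2, Isg15, Ifi204, Bst2 and Lgals3bp, while Ifitm2 overlaps between all 4 groups.

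Neighbouring genes were set against each other within a library, a comparison chosen after the values had been seen. Each ratio was taken after the pseudocount had been added to the FPKM of both genes. The log2 ratio of Ifitm3 to Ifitm2 was -0.025 ± 0.102 (SD, n = 4) in Naive Vehicle and 1.42 ± 0.35 (SD, n = 8) in Cuprizone Vehicle. The log2 ratio of Ifi204 to Ifi203, both on chromosome 1, was -0.999 ± 0.166 (SD, n = 4) and 1.07 ± 0.775 (SD, n = 8). Ifi204 lay below the pseudocount in every Naive Vehicle library. The naive ratio of this pair is therefore largely set by the pseudocount, and it understates how far Ifi204 lay under Ifi203. Because the pairs were picked for their difference, no test is given. A ratio shows unequal change and not which gene changed. In all, 25 of the 54 members with coordinates lay in 9 clusters of genes less than 200 kb apart, spread with the rest over 15 chromosomes.

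Antiviral enzymes and effectors rose throughout, 8 of 8, though Mx1, Slfn8, Ifi44 and Rsad2 passed the filter only through cuprizone libraries. Mx1, a dynamin-like GTPase that traps viral capsids, measured 0.0725, 0.0981, 0.304 and 0.0712 FPKM in Naive Vehicle and 0.542 to 2.3 (median 0.866) in Cuprizone Vehicle. The groups did not overlap, although Naive Vehicle library 3 alone exceeded 0.1, and the log2 rise was 1.29 (SE 0.20, adjusted p = 5.46e-05). Slfn2, a Schlafen protein that restrains growth of immune cells, went from 0.77 ± 0.214 (SD, n = 4) to 2.69 ± 1.12 FPKM (SD, n = 8). Its log2 rise was 1.28 (SE 0.19, adjusted p = 3.25e-05). Slfn8 rose by 1.13, Slfn5 by 0.60 and Ifi44 by 1.03. Rsad2 (viperin, which makes a chain-terminating nucleotide) and its neighbour Cmpk2 (a mitochondrial nucleotide kinase) rose by 0.92 and 0.35, and Samd9l, which blocks translation, by 0.49.

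Among ADP-ribosyltransferases and ubiquitin ligase regulators, 5 of 6 rose. Trim30a, a mouse TRIM protein that limits Toll-like receptor signalling, measured 0.666, 0.552, 0.524 and 0.679 FPKM in Naive Vehicle and 1.34 to 5.00 (median 2.31) in Cuprizone Vehicle. The groups did not overlap, and the log2 rise was 1.46 (SE 0.20, adjusted p = 9.76e-06). Parp14 went from 0.627 ± 0.0989 (SD, n = 4) to 1.79 ± 0.52 FPKM (SD, n = 8), and its log2 rise was 1.00 (SE 0.13, adjusted p = 7.49e-06). The partners Parp9 and Dtx3l, which overlap on opposite strands, rose by 0.97 and 0.67. The sources used here do not say whether counting used strand. Parp12 rose by 0.58, and Trim21, an antibody receptor in the cytosol, had a log2 difference of 0.33 (SE 0.13, adjusted p = 0.103).

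Nuclear proteins showed smaller changes, and 4 of 5 rose. Phf11d went from 0.428 ± 0.157 (SD, n = 4) to 1.59 ± 0.963 FPKM (SD, n = 8), and its log2 rise was 1.07 (SE 0.22, adjusted p = 0.00108). Sp100, a scaffold of nuclear bodies, rose by 0.70 (SE 0.16, adjusted p = 0.00337) on the log2 scale. Helz2, a coactivator of nuclear receptors, rose by 0.39. Daxx, a histone chaperone of the same bodies, measured 8.97, 8.7, 7.54 and 7.06 FPKM in Naive Vehicle and 8.49 to 10.7 (median 9.48) in Cuprizone Vehicle. These overlapped, and the log2 rise of 0.23 (SE 0.063, adjusted p = 0.0138) lost its call without Naive Vehicle library 4 (adjusted p = 0.0978 in limma), without Naive Vehicle library 3 (0.0598) and with only the compared groups in the fit (0.0564). Pml, which organizes the bodies, had a log2 difference of 0.13 (SE 0.063, adjusted p = 0.193).

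The 7 remaining proteins rose, among them some of the most abundant members. Lgals3bp (ENSMUSG00000033880.11, chr11:118392751-118402092, minus strand) encodes a secreted galectin-binding glycoprotein and measured 12.0, 10.5, 8.78 and 13.0 FPKM in Naive Vehicle and 27.4 to 92.7 (median 43.0) in Cuprizone Vehicle. Cuprizone libraries 8 and 5 were the highest at 92.7 and 67.8, no library overlapped, and the log2 rise was 2.04 (SE 0.23, adjusted p = 9.78e-07). Ifi27l2a, a small hydrophobic mitochondrial protein, measured 0.869, 1.93, 1.66 and 0.569 FPKM in Naive Vehicle and 2.53 to 16.5 (median 4.75) in Cuprizone Vehicle. Library 8 alone reached 16.5, the groups did not overlap, and the log2 rise was 1.81 (SE 0.33, adjusted p = 0.000399). Its neighbour Ifi27 rose by 0.47, and Tor3a, Epsti1 and Ifi35 by 0.98, 0.83 and 0.68. Xaf1, a promoter of cell death, rose by 0.47 (adjusted p = 0.0431), a call that ended when any 1 of 9 libraries was left out. These were Naive Vehicle libraries 1 to 4 and Cuprizone Vehicle libraries 1, 2, 5, 6 and 8, and the highest adjusted p was 0.118 (limma), without Naive Vehicle library 2.

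Promoter content and change can be set side by side. Among tested members with a window, the 18 with an ISRE core had a median log2 change of 1.29 with cuprizone under vehicle, and 15 of them were called higher. The 23 without one had a median of 0.62, and 20 were called. Oasl2 and Lgals3bp were among the latter and Ifitm2 and Ifi203 among the former, so the ranges overlapped (0.024 to 1.93 with a core, -0.041 to 2.23 without). The difference between these lists was not tested.

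Interferon transcripts themselves were close to absent. Of 21 ligand genes none reached the filter, and 16 were listed at 0 in every Cuprizone Vehicle library. The highest single value was 0.0804 FPKM, for Ifng in 1 Cuprizone Vehicle library. Ifnb1 was listed at 0 in 6 of 8 Cuprizone BTKi libraries and all 8 Cuprizone Vehicle libraries. Among receptor subunits 2 of 5 tested rose under vehicle, Il10rb (shared by the interferon lambda receptor) by 0.41 (SE 0.084, adjusted p = 0.00108) and Ifngr2 by 0.16 (SE 0.052, adjusted p = 0.0419) on the log2 scale. The Ifngr2 call ended with median ratio scaling (adjusted p = 0.0914, limma) and with quantile normalization (adjusted p = 0.081), and without any 1 of the 4 Naive Vehicle libraries (highest adjusted p = 0.152, without library 3). Ifnar1 and Ifnar2 had log2 differences of 0.12 (adjusted p = 0.114 in limma) and 0.21 (adjusted p = 0.0887).

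Of 13 JAK, STAT and IRF genes 9 rose and 0 fell. Irf7, the factor that amplifies type I interferon production, measured 1.84, 1.6, 1.57 and 1.33 FPKM in Naive Vehicle and 4.13 to 10.9 (median 6.63) in Cuprizone Vehicle. The groups did not overlap, and the log2 rise was 1.81 (SE 0.19, adjusted p = 3.61e-07). Irf9, the DNA-binding subunit of the ISRE complex, measured 5.72, 5.91, 6.52 and 6.41 and 9.43 to 13.1 (median 11.7) FPKM, also without overlap. It changed by 0.84 (SE 0.078, adjusted p = 5.29e-08) on the log2 scale.

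Regulators, sensors and relatives outside the list moved in part. Of 10 negative regulators tested 5 rose, Ptpn6 by 1.23 (SE 0.21, adjusted p = 0.000129) and Socs3 by 0.76 (SE 0.12, adjusted p = 9.25e-05) on the log2 scale. Sensing adaptors and kinases rose in 7 of 11 tested, led by the endosomal receptors Tlr7 (1.13) and Tlr9 (0.69). The chemokine Ccl5, a T cell attractant, went from 0.339 ± 0.144 (SD, n = 4) to 2.63 ± 0.767 FPKM (SD, n = 8). It and Cxcl10 were the 2 of 6 listed chemokines that passed the filter, and both rose. Of 12 tested genes induced mainly by interferon gamma, 11 rose and 1, the tryptophan-degrading enzyme gene Ido1, fell by 0.71 on the log2 scale. Within that list the GTPases Gbp3 and Irgm1 rose by 1.49 (SE 0.15, adjusted p = 9.87e-08) and 1.14 (SE 0.11, adjusted p = 1.58e-07). Under the inhibitor 10 of those 12 genes were called higher with cuprizone and 0 lower. The fall of Ido1 was thus called under vehicle only, but a test of the difference between the effects called none of the 12.

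Markers of microglia rose with the interferon-stimulated genes. Activated microglia markers were higher in 10 of 10 (median log2 change 1.85) and general microglia markers in 7 of 11 (median 0.60). Their summed levels ran from 37.4 to 44.9 FPKM in Naive Vehicle to 80.4 to 376 in Cuprizone Vehicle for the activated list, and from 123 to 153 to 176 to 390.0 for the general list. Astrocyte markers were called higher in 4 and lower in 1 of 9, oligodendrocyte markers lower in 10 of 10 and striatal neuron markers lower in 7 of 7. Under the inhibitor 10 of 10 oligodendrocyte markers were called lower with cuprizone, and 0 of 7 striatal neuron markers. The summed level of the striatal markers spread from 178.4 to 459.7 FPKM within Naive Vehicle. More cells of a type and more RNA per cell cannot be told apart in bulk tissue, and the part of microglia, or of the other tissue shifts, in the members' rise was not tested. Most markers of border macrophages and of infiltrating cells were too low to test. Of those listed, 2 of 10 for border macrophages and monocytes passed the filter, as did 2 of 9 for T and NK cells, 1 of 6 for B and plasma cells and 1 of 4 for plasmacytoid dendritic cells. Among these 6 genes Mrc1, a border macrophage marker, rose by 0.31 (SE 0.10, adjusted p = 0.0401) on the log2 scale, and Cd4 fell from 3.46 ± 2.06 (SD, n = 4) to 1.28 ± 0.409 FPKM (SD, n = 8, adjusted p = 0.00885, limma). The others were not called, and under the inhibitor none of the 6 was called with cuprizone. The summed level of the 9 T and NK cell markers spread from 2.09 to 7.18 FPKM in Naive Vehicle and from 1.76 to 3.40 in Naive BTKi. For the 6 B and plasma cell markers it was 27.02 to 35.58 FPKM in Naive Vehicle and 24.27 to 37.75 in Cuprizone Vehicle. For the 4 plasmacytoid dendritic cell markers it was 11.84 to 19.52 and 9.938 to 16.27 FPKM. In each of these 2 lists only 1 gene passed the filter, so that gene makes up most of the sum. Ly6g, the neutrophil marker, was listed at 0 in every library, and the T cell gene Cd3e averaged 0.0307 ± 0.0271 FPKM (SD, n = 4) in Naive Vehicle and 0.0626 ± 0.0383 (SD, n = 8) in Cuprizone Vehicle. The summed level of 6 neutrophil markers was 0.2 to 0.795 FPKM in Naive Vehicle and 0.194 to 1.12 in Cuprizone Vehicle, and no member of that list passed the filter.

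Pooled over the groups, members moved together between libraries. With group means removed, the median Pearson r over 1378 pairs of the 53 genes was 0.646 (24 libraries), and 93.3% of pairs were above 0, against a median of 0.02 among all tested genes. These libraries share tissue makeup and scaling, so the value is a description. Parp14 had the highest median r with the others, 0.794. Ifi203, Adar, Ifitm1 and Ifitm2 had the lowest, at -0.234, 0.030, 0.071 and 0.086, and these 4 were also among the 6 not called with cuprizone. A score, the mean centred log2 level over the 53 genes, ran from -0.67 to -0.50 in the 8 naive libraries. It ran from -0.017 to 0.86 in Cuprizone Vehicle (median 0.32) and from -0.030 to 0.48 in Cuprizone BTKi (median 0.17). Its SD was 0.313 in Cuprizone Vehicle, 0.172 in Cuprizone BTKi, 0.034 in Naive Vehicle and 0.071 in Naive BTKi. Cuprizone libraries therefore weigh most in the pooled r, and no r within a single group was computed. Cuprizone Vehicle libraries 8 and 5 had the highest scores, 0.86 and 0.84, and library 7 the lowest. The activated microglia score was also highest in libraries 8 and 5 (2.09 and 1.62) and lowest in library 7 (-0.057), and Cuprizone BTKi library 8 led its own group on both scores (0.48 and 1.51).

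**Figure D4:**
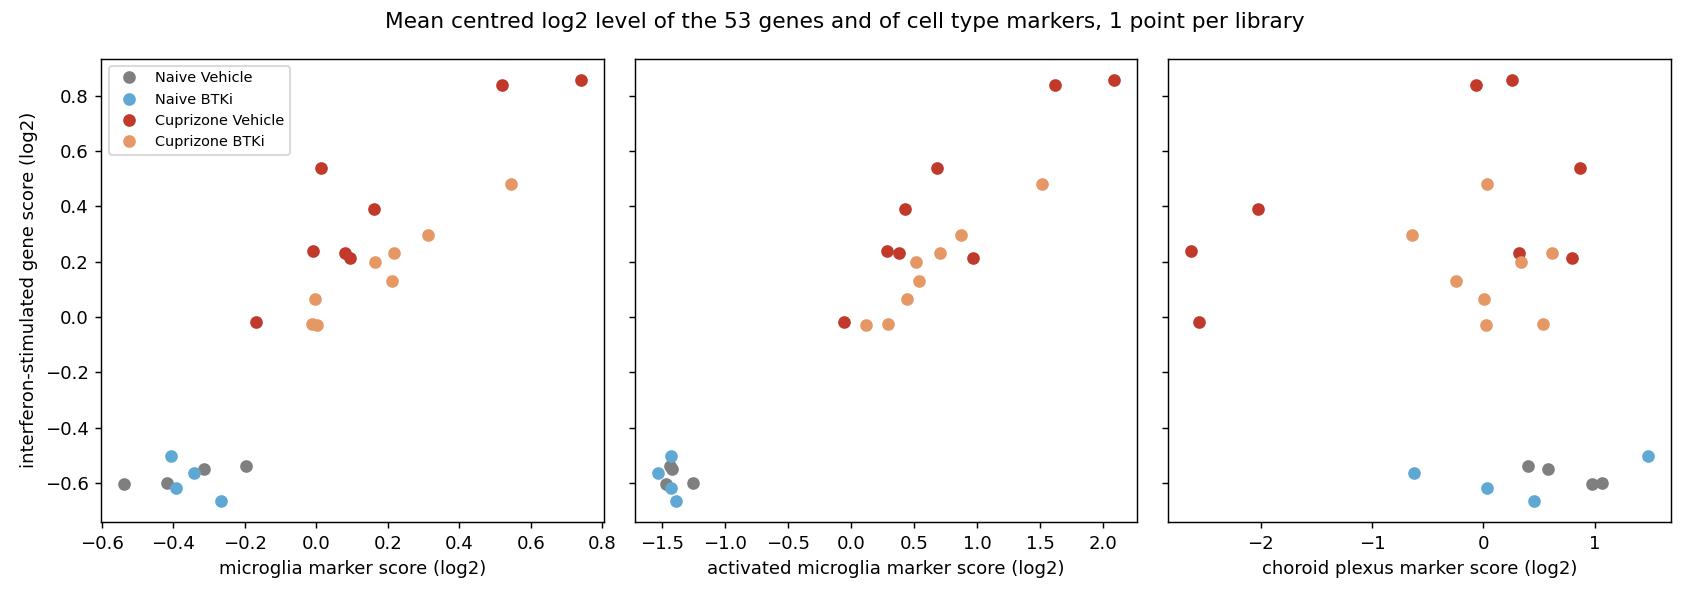
Mean centred log2 level of the 53 interferon-stimulated genes (vertical axis) against the same score for markers of microglia, activated microglia and choroid plexus (horizontal axes), 1 point per library, coloured by group. Naive libraries lie between -0.67 and -0.50 on the vertical axis. Cuprizone Vehicle libraries 5 and 8 are highest on it and on the activated microglia score, and library 8 is also highest on the microglia score.

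The cuprizone rise was also present in mice given the inhibitor. Against Naive BTKi, 42 of 53 members were higher in Cuprizone BTKi and 0 lower, while 6.11% of all genes tested were called higher and 1.77% lower. The 11 members with a naive mean under the filter were all among those 42, and of the other 42 members 31 were called higher. The split of all calls was 929 higher and 269 lower as deposited, 786 and 384 after median ratio scaling and 724 and 395 after quantile normalization, where the members called higher numbered 42, 41 and 35. Before adjustment, at p under 0.05, 48 were higher and 1 lower (13.4% and 5.1% of all genes), and 51 had a difference above 0 (58.0%). The members' median log2 change was 0.72, and 38 did not overlap, all higher, compared with 5.7% of all genes (1.47% lower). Both were taken over all 53, the 11 members with a naive mean under the filter included. Ifit3 measured 5.76, 6.44, 6.76 and 5.93 FPKM in Naive BTKi and 14.6 to 23.4 (median 17.6) in Cuprizone BTKi, a log2 rise of 1.45 (SE 0.15, adjusted p = 7.27e-07). Oasl2 measured 2.14, 2.03, 2.79 and 2.77 and 6.4 to 11.6 (median 8.45) FPKM, again without overlap, and changed by 1.62 (SE 0.18, adjusted p = 1.14e-06). Ifit3b measured 2.49, 2.39, 2.59 and 2.66 and 5.32 to 9.21 (median 6.48) FPKM, a log2 rise of 1.27 (SE 0.15, adjusted p = 5.79e-06).

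By role, all tested IFIT genes (4), OAS genes (3) and antiviral enzymes (8) were called under the inhibitor, with 4 of 6 ISG15 conjugation genes, 7 of 9 sensors, 3 of 5 membrane factors, 5 of 6 ligase regulators, 2 of 5 nuclear proteins and 6 of 7 others. Herc6, Uba7, Helz2, Daxx and Ifi35 were called under vehicle and not here, but a test of the difference between the effects called none of them. Leaving out 1 library moved the count to between 31 and 43, with the lowest value without Naive BTKi library 1, and 12 calls ended when 1 library was left out. Slfn5 lost its call without any 1 of 10 libraries, Xaf1 of 7 and Cmpk2 of 6, and the other 9 calls ended for 1 to 4 libraries each. Oas2, Rsad2, Cmpk2, Samd9l, Slfn2 and Ifi27 went furthest past the threshold without Naive BTKi library 1, Slfn5 and Sp100 without library 2, Ube2l6 and Xaf1 without library 3, and Ifi44 and Phf11d without library 4.

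In cuprizone mice, most members were lower with the inhibitor than with vehicle, but none passed the test. This comparison uses the same Cuprizone Vehicle libraries as the cuprizone effect under vehicle and the same Cuprizone BTKi libraries as that under the inhibitor, so the sets of values are not independent. Limma called 0 of 53 higher and 0 lower, where 0.0394% of all genes were called higher and 0.138% lower. Unadjusted, 23 members had a p under 0.05 on the lower side and 0 on the higher, against 6.53% and 2.26% of all genes. The log2 difference was below 0 for 51 of 53, against 60.5% of all genes, with a median of -0.24 (-0.017 over all genes). All genes split into 6 higher and 21 lower calls as deposited, 6 and 15 after median ratio scaling and 8 and 13 after quantile normalization. Every one of the 53 overlapped between the groups, so 0 were apart in either direction, against 0.0263% of all genes higher and 0.105% lower.

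Ifit1 came nearest to the threshold. It measured 2.01, 3.75, 2.08, 2.98, 3.09, 2.99, 2.57 and 3.1 FPKM in the Cuprizone BTKi libraries, and 4.5, 3.62, 3.71, 4.09, 7.24, 5.42, 3.00 and 5.49 FPKM in the Cuprizone Vehicle libraries. The groups overlapped through BTKi library 2 and vehicle library 7, and the log2 difference was -0.61 (SE 0.13, adjusted p = 0.0586). It passed without either of those libraries (adjusted p = 0.0337 without BTKi library 2 and 0.0229 without vehicle library 7, limma). Ifit3 ranged over 14.6 to 23.4 (median 17.6) FPKM with the inhibitor and 17.8 to 35.9 (median 24.9) with vehicle, overlapping between 17.8 and 23.4. Its log2 difference was -0.49 (SE 0.12, adjusted p = 0.118), and that of Ifit3b was -0.45 (SE 0.13, adjusted p = 0.199).

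Other members showed the same side at smaller evidence. Isg15 ranged over 2.87 to 7.47 (median 4.03) FPKM with the inhibitor, a log2 difference of -0.48 (SE 0.19, adjusted p = 0.422). Oasl2 differed by -0.50 (SE 0.14, adjusted p = 0.199), Mx1 by -0.49 (SE 0.16, adjusted p = 0.319) and Usp18 by -0.44 (SE 0.17, adjusted p = 0.417). The exceptions above 0 were Ifitm1 at 0.17 and Ifitm2 at 0.027. Medians by role ran from -0.47 for IFIT genes to -0.070 for nuclear proteins, and all groups but the membrane factors were below 0 in every tested member. Ifi204, which had the largest cuprizone change, differed by -0.24 (SE 0.22, adjusted p = 0.815).

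**Figure D5:**
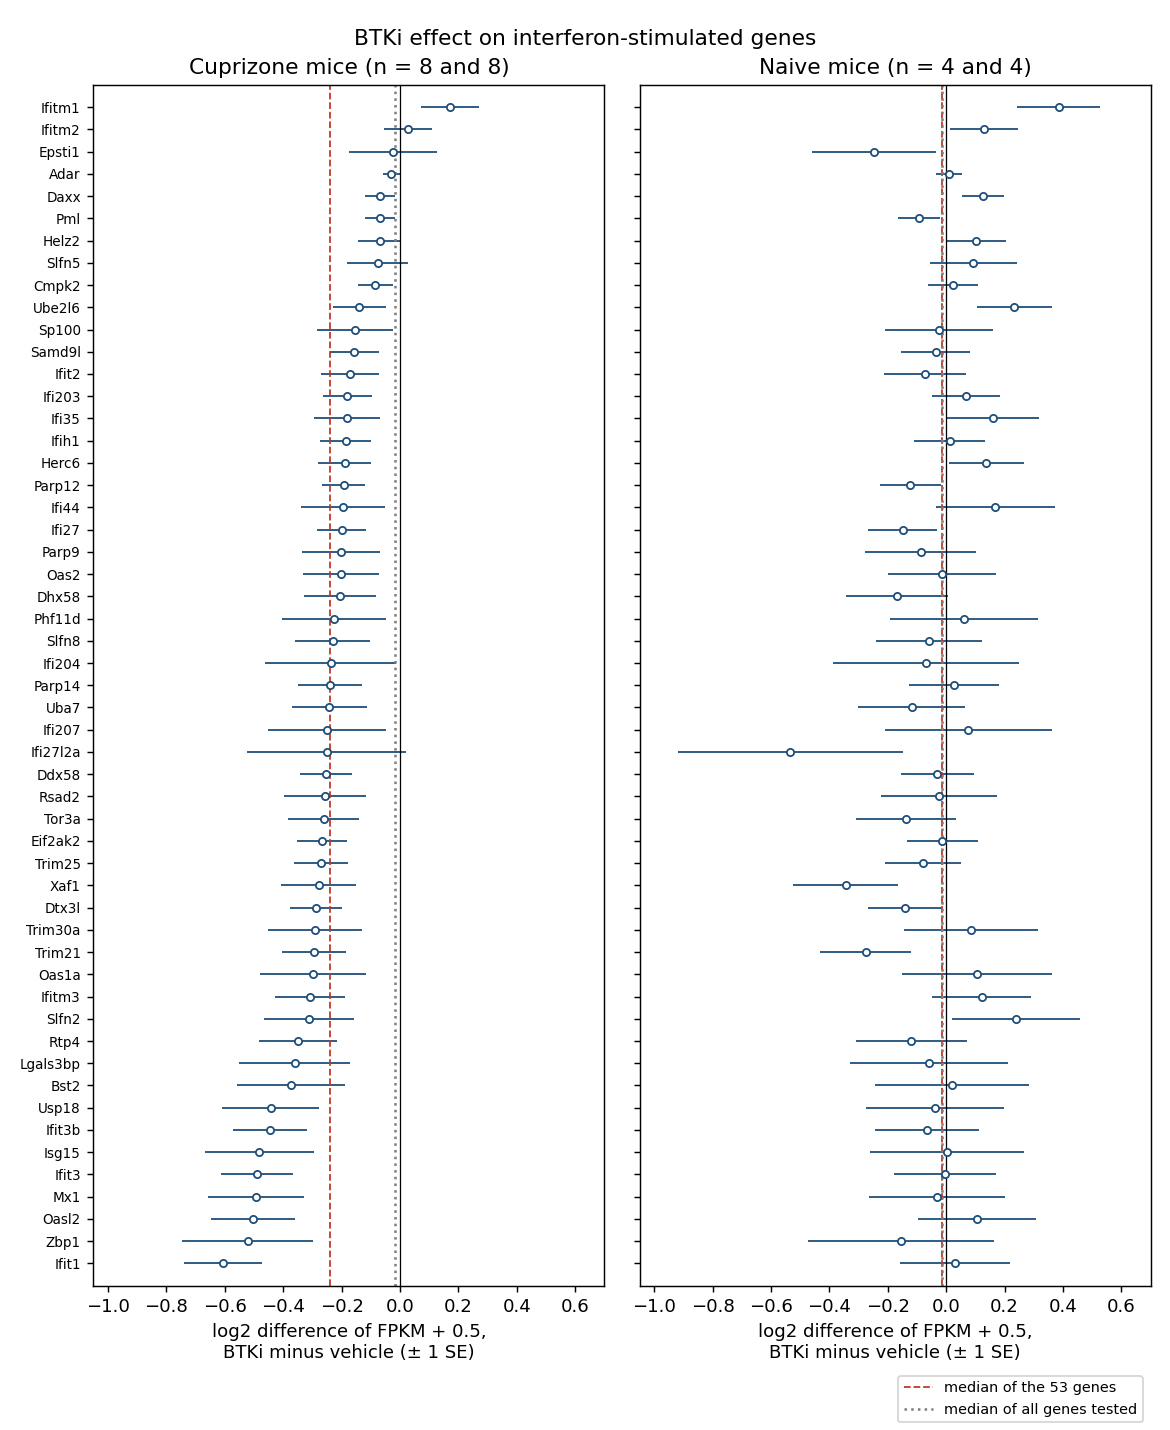
Log2 difference of FPKM + 0.5, BTKi minus vehicle, of the 53 interferon-stimulated genes in cuprizone mice (left) and naive mice (right), in the order of the left panel. Points are limma estimates with bars of 1 standard error, all open because no adjusted p was under 0.05. The dashed line is the median of the 53 genes (-0.24 left, -0.014 right) and the dotted line that of all genes tested.

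Outside the list, none of the pathway genes was called between the inhibitor and vehicle in cuprizone mice. Irf9 ranged over 8.31 to 11.3 (median 9.11) FPKM with the inhibitor, a log2 difference of -0.27 (SE 0.064, adjusted p = 0.0905). Irf7 differed by -0.50 (SE 0.16, adjusted p = 0.291) and Irgm1 by -0.37 (SE 0.094, adjusted p = 0.119). Of 12 genes induced mainly by interferon gamma 11 were below 0, with a median of -0.30. Sensing adaptors had a median of -0.013 and negative regulators of -0.019. Microglia markers had a median of -0.009, with 7 of 11 below 0, and activated microglia markers of -0.13, with 10 of 10 below 0. Over all genes 60.5% were below 0. Of the 2 marker lists 0 of 11 and 0 of 10 were called, and their part in the members' values was not tested. Summed microglia levels were 197 to 309 FPKM with the inhibitor and 176 to 390.0 with vehicle, and summed activated levels 89.4 to 252 and 80.4 to 376.

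Some other tissue markers lay mostly on 1 side of 0 in this comparison, where 39.5% of all genes were above 0. All 7 choroid plexus markers were above 0, at a median of 0.68, as were 9 of 10 oligodendrocyte markers, at a median of 0.19. So were 7 of 7 striatal neuron markers, at a median of 0.14. None of these markers was called, and their part in the members' values was not tested. With Cuprizone Vehicle libraries 1, 4 and 7 left out for their low choroid plexus levels, a choice made with the data in view, the members' median was -0.38. Then 39 were lower at an unadjusted p under 0.05, and 0 were called (smallest adjusted p = 0.0526, limma). The member scores of those libraries were 0.39, 0.24 and -0.017, under their group's mean of 0.41. Leaving them out therefore raises the vehicle mean whatever their choroid plexus content. Leaving out 1 library at a time kept 50 or 51 members below 0, with medians from -0.32 to -0.17. The median nearest 0 came without Cuprizone Vehicle library 8, the library highest in microglia markers. The count at an unadjusted p under 0.05 ran from 16, without Cuprizone BTKi library 1 or without Cuprizone Vehicle library 6 or 8, to 35, without Cuprizone Vehicle library 7.

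In naive mice the inhibitor moved no member past the test. Limma called 0 higher and 0 lower, where 0.105% and 0.112% of all genes were called, a split of 16 and 17 that became 22 and 7 after quantile normalization. Unadjusted, 1 had a p under 0.05 on the higher side (4.63% of all genes) and 0 on the lower (8.0%). The log2 difference was below 0 for 29 of 53 (56.2% of all genes, with 43.8% above), with a median of -0.014. Ifitm1 was the exception, at 1.5, 2.06, 1.85 and 2.29 FPKM with vehicle and 2.74, 2.53, 2.3 and 3.06 with the inhibitor. These did not overlap, the log2 difference was 0.39 (SE 0.14, adjusted p = 0.25), and 2.43% of all genes were as cleanly apart in that direction. Xaf1 measured 6.67, 6.26, 6.6 and 7.43 FPKM with vehicle and 5.11, 5.6, 4.44 and 5.72 with the inhibitor. It was apart in the lower direction, as were 4.93% of all genes, with a log2 difference of -0.34 (SE 0.18, adjusted p = 0.433). Ube2l6 differed by 0.23 (SE 0.13, adjusted p = 0.457). Summed oligodendrocyte markers were 3391 to 4771 FPKM with vehicle and 2939 to 3008 with the inhibitor. All 10 of these markers were below 0, as were 7 of 7 striatal neuron markers (median -0.44) and 7 of 7 choroid plexus markers (median -0.39). None of these markers was called, and their part in these values was not tested.

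Whether the cuprizone effect itself differed between the inhibitor and vehicle was tested as the difference of the 2 effects. No member was called (0 higher and 0 lower), where 0.00657% of all genes were called higher and 0.118% lower. Unadjusted, 7 had a p under 0.05 on the lower side and 0 on the higher, against 4.88% and 4.86% of all genes, and 49 of 53 were below 0 (50.8% of all genes), with a median of -0.21. Ifit1 had a cuprizone effect of 1.72 under vehicle and 1.08 under the inhibitor, a difference of -0.64 (SE 0.23, adjusted p = 0.386). For Oasl2 the difference was -0.61 (SE 0.25, adjusted p = 0.445) and for Ube2l6 -0.37 (SE 0.16, adjusted p = 0.464). Ifi27l2a, Epsti1, Xaf1 and Pml had differences above 0, the highest 0.28 (SE 0.47) for Ifi27l2a. In the same test 10 of 10 oligodendrocyte and 7 of 7 striatal markers were above 0, as were 7 of 7 choroid plexus markers (median 1.08). Over all genes 49.2% were above 0. None of these markers was called, and their part in the members' values was not tested. Without Cuprizone Vehicle libraries 1, 4 and 7, whose member scores lay under their group's mean, the members' median was -0.33. Then 15 had an unadjusted p under 0.05 on the lower side. Leaving out 1 library moved that count to between 4 and 10, with 4 reached without Naive Vehicle library 4, Naive BTKi library 2 or 3, Cuprizone BTKi library 3 or Cuprizone Vehicle library 5 or 8.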

How the data were processed

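RNA from 24 corpus callosum samples was made into stranded polyA libraries with the TruSeq kit, per the labels' protocols. The authors deposited 1 table of FPKM per Ensembl gene ID and library. The aligner, counting tool, genome build and annotation (not given in the sources used here) are unknown. Total FPKM ran from 462521 to 496350. FPKM is relative, so a gene's value falls when others take more of the library. Of the IDs, 53229 matched GENCODE M21 (GRCm38) with version and 54409 a symbol.

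Because FPKM values are normalized, they were tested on a log scale. Limma 3.58.1 (R 4.3.3) was fitted to log2(FPKM + 0.5) over 15216 genes whose mean over all libraries reached 0.5 FPKM, with 1 mean per group, a trend in eBayes and Benjamini-Hochberg adjustment at 0.05. Log2 changes understate those of low genes. The script was first tested on simulated data. Depth was estimated from 110930 values of up to 20 fragments in 33354 genes with 1 transcript, of which 89.79% lay within 0.1 of a whole multiple (20% if uniform). This assumes that whole fragments were counted. Daxx had no coordinates of its version. Promoters came from RefSeq (GRCm38.p6), which had no window for 12 members. Replicates of a group differed by a median absolute log2 value of 0.0832 to 0.149 over genes, so no library was a copy.

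The members and the lists of pathway and marker genes were chosen with earlier results of these data known. Named members are, per role group, the 2 with the largest absolute log2 change with cuprizone under vehicle, the 5 members with the smallest, and in each other comparison the 3 with the smallest p. In each pathway list the 2 genes with the smallest p with cuprizone under vehicle are named. Other genes named, pathway genes included, were chosen after their values were seen. Alternatives were other pseudocounts (0.1 and 1), no filter or one of 1 FPKM, median ratio scaling, quantile normalization, no trend, only the compared groups, a replicate block, and each library left out. No library was left out of the results given unless stated.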

Additional observations from a re-analysis of the deposited data

Results flagged for a closer look

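In groups of 4 to 10 libraries, a library was looked at when its gap to the nearest other exceeded Dixon's 95% critical value. Of 104 pairs of a named member and a group, 5 had such a library, and chance gives about 1 in 20. All 5 were the highest of their group. Oas1a was at 0.681 FPKM in Naive BTKi library 2 and at 2.98 FPKM in Cuprizone BTKi library 8, the library that also led its group in activated microglia markers. Ifi204 was at 0.235 FPKM in the same Naive BTKi library 2. Usp18 was at 0.983 FPKM in Naive BTKi library 3, and Mx1 at 0.304 FPKM in Naive Vehicle library 3.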

How the results depend on the processing

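Over 47 results for single genes, 1568 of 1592 values under an alternative kept their direction and side of the threshold. The sign of Ifitm2 with cuprizone under vehicle turned to -0.00410 with median ratio scaling, -0.00679 with quantile normalization, -0.0248 without Naive Vehicle replicate 1 and -0.00424 without Cuprizone Vehicle replicate 5, and leaving out 1 library gave at most 0.0801. That of Ifitm1 turned to 0.0301 without Naive Vehicle replicate 4 and was -0.132 at its lowest. Members higher with cuprizone numbered 45 to 47 under vehicle when 1 library was left out, and 31 to 43 under BTKi. Members lower with BTKi in cuprizone mice numbered 0 to 1. Over all genes, leaving out 1 library gave 2 to 6 higher and 12 to 29 lower for BTKi in cuprizone mice, 5 to 20 and 2 to 21 in naive mice, and 1 to 4 and 7 to 21 for the difference of the cuprizone effects. For BTKi in cuprizone mice, all-gene counts became 2 higher with no filter, 3 with only the compared groups, 2 without the choroid plexus-poor libraries, and 13 lower with quantile normalization and 9 without those libraries. In naive mice they became 7 higher with no filter or without those libraries, 1 higher with only the compared groups, 7 lower with quantile normalization and 2 with only the compared groups. The difference gave 4 higher with no filter, 3 with no trend and 6 lower without those libraries. The cause was not tested.

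Replicate numbers showed no consistent pairing of the libraries. Same-numbered deviations correlated from -0.274 to 0.324 between the cuprizone groups, with 3 of 8 pairs over 0.1. Between the vehicle groups they correlated from -0.0254 to 0.282, with 2 of 4 pairs over 0.1. Between the naive groups 0 of 4 pairs were over 0.1, and between the BTKi groups 0 of 4. With the replicate block, 1 member was called lower with BTKi in cuprizone mice (Ifit1, adjusted p = 0.0385, limma), where 32 had an unadjusted p under 0.05 on the lower side against 23 without it, 33 were called higher with cuprizone under BTKi and 46 under vehicle. Over all genes the block gave 3 higher calls for BTKi in cuprizone mice, and 0 higher and 9 lower for the difference. Depth limits the low members most: Ifi27l2a rested on 4 to 27 fragments in naive libraries.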
